A study of Homo sapiens with 8 samples.

Results

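Messenger RNAs recovered with the initiation factor subunit eIF3d from fed HEK293T cells were set against polyadenylated input RNA of such cells, across mRNA classes and single genes. HEK293T is a human embryonic kidney line that carries SV40 large T antigen. The cells expressed eIF3d with an HA tag that can be cut off by TEV protease, a viral enzyme with a narrow recognition site, and all 4 libraries used here carry this tagged subunit. They grew for 48 h in complete medium, which was DMEM with 10% fetal bovine serum, and were irradiated at 254 nm, which ties RNA to protein it touches. The 2 IP libraries hold RNA that came off anti-HA beads with TEV, and the 2 input libraries hold RNA of the lysate before the beads. The series also holds IP and input libraries of cells without glucose, which entered only an alternative fit here. An IP from untagged cells was not used here, so RNA that sticks to the beads and RNA bound by eIF3d cannot be told apart. The labels do not say whether the libraries of a pair came from separate cultures, so p-values measure the spread among the 4 libraries, and that spread can be technical. The gene set comprised 9844 of the 57998 genes in the complete-medium table, each with a mean of at least 1 RPKM (reads per kilobase of transcript and per library total) over the 4 libraries, and 8262 of them were nuclear protein-coding genes.

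eIF3 is the many-subunit factor that joins the small ribosomal subunit to mRNA during initiation. Its subunit d can itself hold the cap at the start of some mRNAs, JUN being the best known, and so can serve initiation when the usual cap-binding protein eIF4E is not used. Another class of transcripts, the TOP mRNAs, begins with a run of pyrimidines and encodes mainly ribosomal proteins and elongation factors. Their translation follows mTOR, the kinase that reads nutrient supply, and LARP1 is the protein known to bind the TOP start.

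The libraries held between 19490714 and 31708998 reads assigned to genes, as recovered from the RPKM values. Nuclear mRNAs took 54.6 ± 0.903% of the reads in the IP libraries and 28.7 ± 0.521% in the inputs (SD, n = 2 each). Long noncoding RNA took 41.9% and 29.7% in the IP libraries, against 17.7% and 36.5% in the inputs, so that the inputs also differed in composition. Mitochondrial ribosomal RNA took 1.27% and 10.7% in the IP libraries, against 39.4% and 26.8% in the inputs, so that the IP libraries stood apart from each other in this class. Because the typical gene therefore has a higher RPKM in an IP, each library was scaled to the same median gene before testing; the deposited values are divided by 1.86 and 1.74 in the IP libraries and by 0.462 and 0.672 in the inputs. Log2 levels correlated at r = 0.890 between the IP libraries and r = 0.959 between the inputs across the 9844 genes. Of 25 markers of cell types that the culture should lack, 2 to 4 reached 1 RPKM in a library, and their summed level was 8.52 to 11.9 RPKM in the IPs and 12.4 to 20.1 RPKM in the inputs. Between 2 and 15 of the 25 were at 0 in a library. The highest in the inputs was HBA1, a globin gene, with 1.70 and 0.903 RPKM in the IPs, against 10.0 and 5.41 RPKM in the inputs, and in the IPs COL1A1, a collagen gene, with 6.24 and 3.45 RPKM in the IPs, against 0.482 and 0.841 RPKM in the inputs; their part in the results was not tested.

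At an adjusted p under 0.05, 2308 genes (23.4%) were higher in the IP and 2364 (24.0%) were lower, by limma on log2(scaled RPKM + 1) with Benjamini-Hochberg adjustment over all genes tested. The 2 IP values lay above both inputs for 41.0% of the genes and below both for 34.3%. The 23.4% and 24.0% are the shares over all genes beside which the list counts below stand. On this scale the change of a low gene is understated, and an exact permutation test of 2 libraries against 2 cannot give a p under 0.333. Of the genes that were higher, 1630 had passed the filter only through the IP pair, where a fall was hardly possible (9 of those 3584 genes were lower). Among the 5940 genes with at least 1 RPKM in each pair, 678 were higher and 2035 lower. When only these 5940 genes were fitted, 738 were higher and 2078 lower. The number of higher genes rested most on the first input library, the deepest of the 4: without it 644 genes were higher and 1507 lower, against 1110 and 2017 without the second input. With the RPKM as deposited, the split was 6204 higher to 1047 lower, since that scale puts the median gene 1.21 log2 units up.

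**Figure D1:**
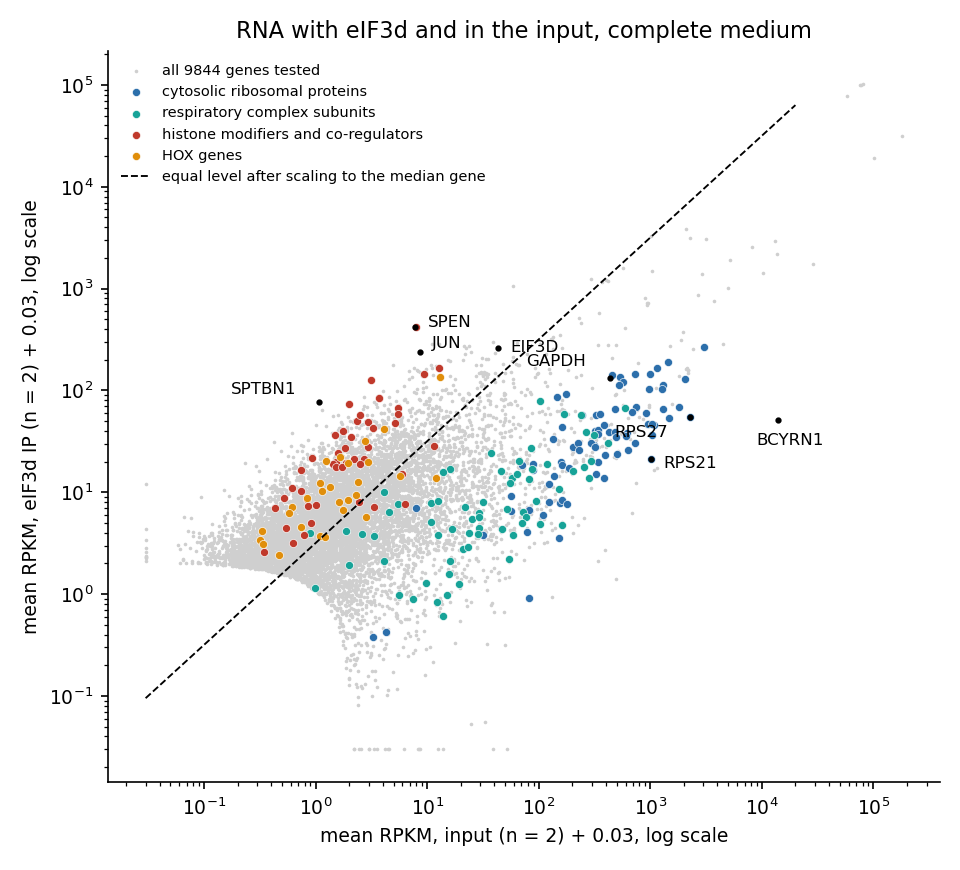
Mean RPKM in the eIF3d IP (vertical axis, n = 2) against the input (horizontal axis, n = 2), both on log scales with 0.03 added so that genes at 0 are drawn, for the 9844 genes tested. Points above the dashed line are higher in the IP once each library is scaled to its median gene; cytosolic ribosomal protein genes lie to the right of and below it, and most histone modifiers and HOX genes above it.

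Ribosomal protein mRNAs had the most negative medians of IP over input among the gene lists. All 31 tested mRNAs of the 40S subunit and all 47 of the 60S subunit fell, with median log2 changes of -5.18 and -4.75, where the median over all genes tested was 0.12. RPS21, a small-subunit protein, had 24.5 and 17.7 RPKM in the IPs, against 1305 and 716 RPKM in the inputs (log2 change -7.10, SE 0.73, limma adjusted p = 3.3e-06). RPS27, another 40S protein, had 74.6 and 36.0 RPKM in the IPs, against 2886 and 1626 RPKM in the inputs. RPL41, the smallest protein of the 60S subunit, had 152 and 104 RPKM in the IPs, against 2588 and 1474 RPKM in the inputs. In all 3 both IP values were far below both inputs. The mRNA of RPS2, the most abundant of the 40S list, was lower by 5.18 on the log2 scale, with 313 and 221 RPKM in the IPs, against 3575 and 2475 RPKM in the inputs. RACK1, a scaffold protein of the 40S head, had 114 and 68.6 RPKM in the IPs, against 494 and 502 RPKM in the inputs and a log2 change of -4.15. Many ribosomal protein genes have processed pseudogenes whose reads the counting may have split, and pseudogenes themselves, as annotated, were lower for 467 and higher for 166 of 938 tested. With trends on exon length and GC content taken out, all 31 of the 40S and 46 of the 47 of the 60S mRNAs remained lower.

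A pyrimidine start was common in these mRNAs. A C followed by at least 4 further C or T, beginning within 5 bases of the annotated start on the transcribed strand, was found in 20 of the 25 promoters of 40S genes and 31 of the 38 of 60S genes that RefSeq's GRCh38.p14 table holds, against 5749 of all 27305 promoters (21.1%). It was found in 25.4% of nuclear coding genes that were lower in the IP, in 21.1% of those that were higher and in 22.9% of the rest. Without the ribosomal proteins, the share among lower genes was 22.8%, close to that of all nuclear coding genes tested (23.0%). So short a match occurs often by base composition alone, and it describes letters, not a tested element. The starts of 6 lower and 7 higher mRNAs are printed as examples, picked with their values known. Each runs from 10 bases before the annotated start to 20 bases into the gene, with the first pyrimidine run found in capitals. The lower ones are RPS21 (chr20:62387093-62387122, plus strand), RPS27 (chr1:153990752-153990781, plus strand), RPS12 (chr6:132814559-132814588, plus strand), RPL12 (chr9:127451387-127451416, minus strand), RPL27 (chr17:42998409-42998438, plus strand) and EIF3K (chr19:38619178-38619207, plus strand). The higher ones are SPEN (chr1:15847697-15847726, plus strand), SPTBN1 (chr2:54456317-54456346, plus strand), KMT2D (chr12:49060775-49060804, minus strand), PRRC2B (chr9:131373641-131373670, plus strand), JUN (chr1:58784028-58784057, minus strand), LARP1 (chr5:154682969-154682998, plus strand) and RPTOR (chr17:80544828-80544857, plus strand). The run was found in 5 of the 6 lower windows, RPL27 being without it, and in 3 of the 7 higher ones. In SPTBN1 and KMT2D the marked run began 5 bases before the annotated start, at the edge of the search, and ended before that start. In KMT2D the base before the mark is also a C. Only the first match in a window was marked, and SPTBN1 holds a further run inside the gene, left in lower case. Among the higher mRNAs PRRC2B and SPTBN1 thus had a run inside the gene. Windows with and without the run occurred in both directions.
RPS21: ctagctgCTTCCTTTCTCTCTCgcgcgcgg
RPS27: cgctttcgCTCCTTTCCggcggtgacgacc
RPS12: cggatgaggCCTCTTTCCCTgccgccgccg
RPL12: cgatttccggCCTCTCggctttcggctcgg
RPL27: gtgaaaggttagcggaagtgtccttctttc
EIF3K: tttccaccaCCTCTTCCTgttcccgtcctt
SPEN: cgcgcgcgccagtgggaagcgtccggctgc
SPTBN1: ggattCCTCCagtccctccctcggccgcct
KMT2D: ggatcCCTCCgccgctccgctccaacacaa
PRRC2B: cacaggccccgCCTTCCgctctgggccgcc
JUN: ctggataagggctcagagttgcactgagtg
LARP1: ctccgccgccagaggctgagtcatcgctgc
RPTOR: tgcattctgggtcctggcaatatggcgtcc

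Among elongation factors and the other TOP mRNAs outside the ribosome, 11 of 16 tested were lower and 0 higher (median log2 change -1.91). The pyrimidine start was found in 9 of the 11 genes with a RefSeq promoter, against 23.0% of all nuclear coding genes tested. TOP mRNAs are defined by such a start, so this share follows at least in part from how the list was chosen. It therefore cannot tell whether the start is tied to the falls. The most negative was RACK1, given above, followed by EEF1B2, a subunit of the exchange factor that reloads eEF1A, with 38.4 and 80.1 RPKM in the IPs, against 211 and 152 RPKM in the inputs and a log2 change of -3.34. EEF2, the translocase of elongation and the most abundant of the list, had 586 and 322 RPKM in the IPs, against 186 and 289 RPKM in the inputs and did not pass the test (log2 change -0.78, SE 0.78, limma adjusted p = 0.43). Its IP values exceeded both inputs as deposited and lay below both after scaling, so the sign of its change depends on the scale.

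The subunits of eIF3 itself were split. Of 12 tested, 1 was higher and 6 were lower in the IP, with a median log2 change of -1.23. EIF3A, which encodes the largest scaffold subunit, had 93.8 and 177 RPKM in the IPs, against 5.07 and 9.51 RPKM in the inputs and was higher (log2 change 2.43, SE 0.56, limma adjusted p = 0.0023). EIF3K, EIF3I and EIF3F, which encode small subunits, had log2 changes of -3.50, -3.44 and -2.74, all lower, and EIF3K had 17.7 and 16.7 RPKM in the IPs, against 62.2 and 69.8 RPKM in the inputs. EIF3D, the mRNA of the tagged subunit, had 317 and 211 RPKM in the IPs, against 36.5 and 50.3 RPKM in the inputs. Its scaled levels were above the inputs in both IP libraries, yet it did not pass the test (log2 change 0.90, SE 0.65, limma adjusted p = 0.27); the tagged copy and the cell's own gene may both contribute reads, and cannot be told apart. Of the 8 eIF3 genes with a promoter in the table, 6 had the pyrimidine start. Its share varied among lists called in either direction. It was found in 7 of 16 genes of giant E3 ubiquitin ligases, a list that was mostly higher. Among large-subunit mitochondrial ribosomal proteins, mostly lower, it was found in 7 of 37 genes.

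Cap-binding factors gave calls in both directions. Among 13 eIF4 and cap-binding factors, 3 were higher and 2 lower, beside 23.4% and 24.0% of all genes tested. The higher ones all encode the large eIF4G scaffold family: EIF4G1 had 249 and 275 RPKM in the IPs, against 9.37 and 35.0 RPKM in the inputs (log2 change 2.13, SE 0.65, limma adjusted p = 0.014), EIF4G2 a log2 change of 1.84 and EIF4G3 one of 1.50. Without the first input library, and also without the second IP library, 0 of the 13 passed as higher. EIF4EBP1, the short repressor that mTOR releases from eIF4E, had 79.1 and 28.6 RPKM in the IPs, against 380.1 and 203 RPKM in the inputs and was lower (log2 change -4.18, SE 0.74, limma adjusted p = 3.2e-04). EIF4EBP2, a repressor of the same family, did not pass (log2 change 0.41) and was picked out after its values were seen. With the length and GC trends removed 1 of the 3 rises kept its call. EIF4E2, a cap-binding homologue of eIF4E that represses translation, was lower by 1.84 on the log2 scale. Among eIF1, eIF2, eIF2B, eIF5 and eIF6 factors 0 of 16 were higher and 5 lower, led by EIF6, the anti-association factor of the 60S subunit (-3.21), and EIF2S2, the beta subunit of eIF2 (-2.77); 3 or 4 were lower when 1 library was left out.

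Genes of the mTOR pathway gave calls in both directions. Of 24 tested, 7 were higher and 7 lower (median 0.12), beside 23.4% and 24.0% of all genes tested, whose median was also 0.12. Of the 7 higher, 4 had passed the filter only through the IP pair. The split was 3 higher to 8 lower when only genes with 1 RPKM in both pairs were fitted, and 5 to 9 with the length and GC trends removed. RPTOR, the large substrate-binding subunit of mTORC1, had 36.5 and 29.2 RPKM in the IPs, against 1.28 and 3.78 RPKM in the inputs (log2 change 1.94, SE 0.45, limma adjusted p = 0.0024). MTOR, the kinase, had 34.1 and 16.4 RPKM in the IPs, against 1.65 and 3.50 RPKM in the inputs (log2 change 1.42, SE 0.45, limma adjusted p = 0.016). LAMTOR4 and LAMTOR2, small subunits of the Ragulator complex that holds mTORC1 at the lysosome, had log2 changes of -3.89 and -3.62. LAMTOR2 had 12.6 and 9.44 RPKM in the IPs, against 62.1 and 36.8 RPKM in the inputs, so each IP value was under the inputs. Without the first input library 0 were higher, with RPTOR at an adjusted p of 0.051 and MTOR at 0.13 in limma, and 4 were lower; without the second input 2 were higher. LARP1, the TOP-binding protein, had 151 and 181 RPKM in the IPs, against 7.52 and 14.7 RPKM in the inputs and was higher (log2 change 2.23, SE 0.56, limma adjusted p = 0.0045); it was the highest of 6 La-related genes tested, of which 2 were higher and 0 lower.

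**Figure D2:**
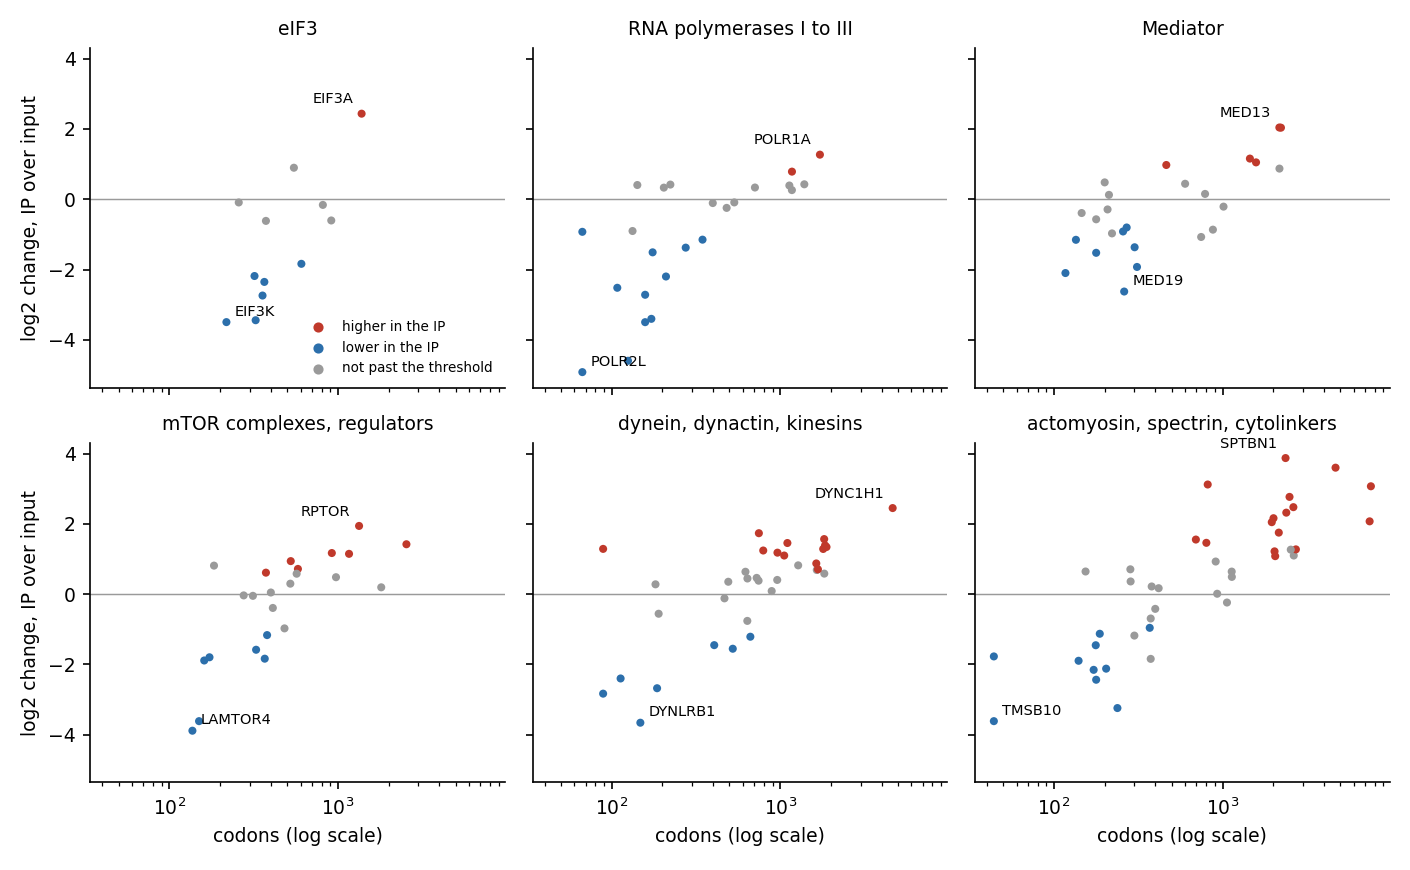
Log2 change, IP over input (vertical axis), against the number of codons (horizontal axis, log scale) for the tested members of 6 gene lists, coloured by the call. In each panel most mRNAs with few codons lie low and most with many codons high, with single exceptions such as a short dynein gene that was higher; POLR2A is left out because GENCODE 29 annotates no full-length coding transcript for it.

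Nuclear mRNAs for the mitochondrial ribosome and respiratory chain were mostly lower. Of the large and small mitochondrial ribosome subunits 40 of 44 and 23 of 25 mRNAs fell, with medians of -2.56 and -1.65, and 0 rose. Of respiratory complex I, 29 of 31 fell (median -3.70), and of complexes II to V, 31 of 37 (median -3.65), again with 0 higher. ATP5ME, a small subunit of ATP synthase, had 5.36 and 4.16 RPKM in the IPs, against 194 and 133 RPKM in the inputs (log2 change -6.31, SE 0.56, limma adjusted p = 1.3e-06). NDUFB7, an accessory subunit of complex I, had 34.6 and 25.8 RPKM in the IPs, against 430.3 and 410.0 RPKM in the inputs. COX8A, a small subunit of cytochrome oxidase, had 79.8 and 53.9 RPKM in the IPs, against 679 and 518 RPKM in the inputs. SDHB, the iron-sulphur subunit of complex II, was lower by 3.56 and MRPL41, of the large mitochondrial subunit, by 5.09 on the log2 scale. Among import translocases 12 of 19 were lower, led by TIMM8B (-6.20) and TOMM7 (-5.89), and 1 was higher. Enzymes of the TCA cycle and pyruvate entry had 9 of 23 lower, 0 higher and a median of -0.42. With the length and GC trends taken out, 29 of 31 complex I and 33 of 37 mRNAs of complexes II to V passed as lower.

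The mRNAs encoded in the mitochondrial genome, which carry no cap, also were low in the IP, but the IP libraries disagreed. MT-CO3, a core subunit of cytochrome oxidase, had 617 and 2869.7 RPKM in the IPs, against 37387 and 19965 RPKM in the inputs and a log2 change of -6.05. Values were wide apart within each pair. The second IP library had the higher IP value, and the same library held the larger share of mitochondrial ribosomal RNA. Of the 13 such mRNAs 8 were lower and 0 higher; leaving out 1 library at a time, 0 (without the first input), 2 (without the first IP), 5 (without the second input) or 11 (without the second IP) were lower.

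Genes of protein degradation gave calls in both directions. Of the 20S proteasome core 10 of 11 mRNAs were lower (median -3.37), PSMB6, a catalytic beta subunit, with 14.1 and 10.7 RPKM in the IPs, against 61.2 and 76.0 RPKM in the inputs. Of the 19S regulator 11 of 17 were lower (median -1.27), 3 without the first IP library and 5 to 7 without each of the others. Ubiquitin-conjugating enzymes and ubiquitin-like proteins had 10 lower and 2 higher of 23. Ubiquitin itself, from UBB, had 85.4 and 44.1 RPKM in the IPs, against 146 and 192 RPKM in the inputs and a log2 change of -3.10, and UBL5, a small ubiquitin-like splicing protein, one of -4.14. In contrast, 14 of 18 tested HECT, RBR and other giant E3 ligases were higher and 0 lower, with a median of 1.50; 10 of the 14 had passed the filter only through the IP pair, and 7 were higher without the first input library. HUWE1, a giant HECT ligase, had 201 and 113 RPKM in the IPs, against 4.60 and 11.7 RPKM in the inputs (log2 change 2.58, SE 0.57, limma adjusted p = 0.0017). With the length and GC trends taken out 8 of these 14 remained higher.

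Chaperone and secretory mRNAs gave calls in both directions. Of the CCT chaperonin and prefoldin, 8 of 13 were lower, led by PFDN5 (-4.32) and PFDN1 (-2.64), both prefoldin subunits; 3 to 5 were lower when 1 library was left out. Of 28 translocon, signal recognition and signal peptidase mRNAs 13 were lower, among them SSR4, a translocon-associated protein, with 11.2 and 4.83 RPKM in the IPs, against 135 and 108 RPKM in the inputs, and OST4, a very short subunit of oligosaccharyltransferase, with 24.1 and 14.7 RPKM in the IPs, against 239 and 179 RPKM in the inputs. Coat proteins gave 2 higher and 5 lower of 29, AP2S1, the small chain of the endocytic adaptor, being the most negative (-4.54). ER chaperones gave 4 higher and 3 lower of 22, and heat shock chaperones 2 and 2 of 23. With 1 library left out, the higher ones numbered 0 to 6 for coat proteins, 0 to 4 for ER chaperones and 0 to 4 for heat shock chaperones. Both rises of the heat shock list and 2 of the 4 of the ER list had passed the filter only through the IP pair. HSPA5, the main ER Hsp70, had 97.6 and 68.1 RPKM in the IPs, against 9.91 and 6.81 RPKM in the inputs, which is a log2 change of 1.55 (limma, adjusted p = 0.028), a call that was lost without either IP library or the second input.

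Regulators of chromatin had the largest share of rises among the gene lists examined. Of 47 histone methyltransferases, acetyltransferases and co-regulators tested, 39 were higher in the IP and 0 lower, with a median log2 change of 1.60. SPEN, a co-repressor of nuclear receptor and Notch targets, had 223 and 612 RPKM in the IPs, against 4.73 and 11.0 RPKM in the inputs, the largest rise of any gene tested (log2 change 3.89, SE 0.65, limma adjusted p = 1.9e-04). KMT2D, a histone H3 lysine methyltransferase of enhancers, had 128 and 127 RPKM in the IPs, against 1.49 and 4.68 RPKM in the inputs (log2 change 3.64, SE 0.51, limma adjusted p = 4.2e-05). EP300, a histone acetyltransferase, had 72.1 and 95.1 RPKM in the IPs, against 1.75 and 5.53 RPKM in the inputs. In all 3 both IP values were far above both inputs. Of the 39, 28 had at least 1 RPKM in both pairs; 18 passed without the first input library, and 22 with the length and GC trends taken out. Among chromatin remodellers 15 of 29 were higher and 2 lower (median 0.90), ARID1A, the large DNA-binding subunit of SWI/SNF, with 51.0 and 49.8 RPKM in the IPs, against 1.84 and 4.81 RPKM in the inputs and CHD7, a nucleosome remodeller, with 20.6 and 23.8 RPKM in the IPs, against 0.622 and 1.71 RPKM in the inputs. BCL7C, a small accessory subunit of SWI/SNF, was lower by 2.33 on the log2 scale. Of the 15 higher, 6 had passed only through the IP pair. The higher ones numbered 7 without the first input library, and with length and GC taken out 6.

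Within single complexes, the largest rises were in large subunits and the largest falls in small ones. Many members had no call, 11 of 25 for the RNA polymerases and 12 of 25 for Mediator. Over all genes tested 23.4% were higher and 24.0% lower. Of 25 RNA polymerase subunits 3 were higher and 11 lower. POLR2A, the catalytic subunit of RNA polymerase II, had 229.8 and 168 RPKM in the IPs, against 11.1 and 30.5 RPKM in the inputs (log2 change 1.70, SE 0.61, limma adjusted p = 0.032), a call lost without either IP library or the first input. POLR2L and POLR2I, small subunits, had 37.4 and 55.8 RPKM in the IPs, against 411 and 485 RPKM in the inputs for POLR2L and 4.36 and 2.34 RPKM in the IPs, against 40.5 and 34.2 RPKM in the inputs for POLR2I, with log2 changes of -4.92 and -4.60. In Mediator, the bridge between activators and RNA polymerase II, 5 of 25 were higher and 8 lower. MED13L, of the large kinase module, was higher (log2 change 2.04) and MED19, of the middle module, lower (-2.63); with 1 library left out 1 to 5 were higher and 4 to 8 lower, and of the polymerase subunits 0 to 3 were higher. Of the rises, 1 of the 3 polymerase and 3 of the 5 Mediator ones had passed only through the IP pair. None of the 3 polymerase rises and 1 of the 5 Mediator rises remained with the length and GC trends removed.

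A similar division of the extremes was seen in the cytoskeleton, with exceptions such as a short dynein gene that was higher. Of 42 actomyosin, spectrin and cytolinker genes 16 were higher, 4 of them through the IP pair alone, and 10 lower. SPTBN1, the beta spectrin that ties the membrane to actin, had 61.7 and 91.8 RPKM in the IPs, against 1.18 and 0.959 RPKM in the inputs (log2 change 3.87, SE 0.46, limma adjusted p = 9.4e-06). PLEC, the cytolinker plectin, had 78.0 and 50.5 RPKM in the IPs, against 1.01 and 1.19 RPKM in the inputs. MACF1, a giant spectraplakin, had 22.8 and 28.5 RPKM in the IPs, against 0.406 and 0.506 RPKM in the inputs. TMSB10, a short actin-monomer-binding peptide, had 138 and 139 RPKM in the IPs, against 743 and 383 RPKM in the inputs. MYL6, a myosin light chain, had 6.43 and 4.92 RPKM in the IPs, against 20.3 and 22.3 RPKM in the inputs; both were lower, with log2 changes of -3.62 and -3.24. There were 9 higher and 6 lower genes without the first input library, and without the second IP 14 and 6. Of 34 dynein, dynactin and kinesin genes 13 were higher and 7 lower, 7 of the 13 having passed only through the IP pair. DYNC1H1, the dynein heavy chain, had 67.7 and 18.4 RPKM in the IPs, against 1.24 and 1.99 RPKM in the inputs (log2 change 2.45, SE 0.51, limma adjusted p = 0.0012), while DYNLRB1, a light chain, had 13.2 and 10.1 RPKM in the IPs, against 55.3 and 48.5 RPKM in the inputs (-3.66). The higher ones numbered 1 without the first input library and 6 without the second, and 4 of the 13 remained higher with length and GC trends taken out, DYNC1H1 not among them. Tubulins and septins gave 0 higher and 2 lower of 14, and 0 to 2 lower with 1 library left out.

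Genes of signalling and development were higher in the IP more often than the 23.4% of all genes. Of 33 Notch, Wnt, cadherin and receptor genes 21 were higher and 0 lower (median 1.22). IGF1R, the receptor for insulin-like growth factor, had 58.3 and 40.1 RPKM in the IPs, against 1.51 and 1.84 RPKM in the inputs (log2 change 2.81, SE 0.44, limma adjusted p = 1.0e-04). FAT1, a giant protocadherin, had 22.4 and 23.0 RPKM in the IPs, against 0.573 and 0.488 RPKM in the inputs. Of the 21, 12 had passed the filter only through the IP pair, 12 passed without the first input library and 12 with the trends removed. SLIT2, a secreted guidance cue outside that list, had 55.0 and 59.8 RPKM in the IPs, against 1.43 and 1.67 RPKM in the inputs. IGF2R, the clearance receptor for IGF2, had 39.8 and 16.0 RPKM in the IPs, against 1.22 and 1.03 RPKM in the inputs.

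JUN, the AP-1 subunit whose mRNA is the textbook case of cap binding by eIF3d, had 232 and 248 RPKM in the IPs, against 5.18 and 12.0 RPKM in the inputs. The IP values lay close together and above both inputs, with a log2 change of 3.15, SE 0.57, the ninth largest of all 9844 genes (limma, adjusted p = 4.0e-04). Its coding part has 331 codons and its exons span 3540 bases, against medians of 466 codons and 4908 bases over the nuclear coding genes tested. With the length and GC trends taken out its change was 3.48. Of 26 AP-1 and immediate early genes 7 were higher and 1 lower, with a median of 0.64, beside 23.4% and 24.0% of all genes tested. Of the 7, 5 had passed the filter only through the IP pair. In turn 17 were higher and 0 lower with the trends removed, and 1 was higher without the first input library and 3 without the second. ZFP36L2, which promotes decay of AU-rich mRNAs, had 28.9 and 18.0 RPKM in the IPs, against 1.31 and 2.90 RPKM in the inputs and a log2 change of 1.60, not past the threshold without the first IP or the first input. MYC, a related growth regulator, had 97.0 and 59.8 RPKM in the IPs, against 6.98 and 12.6 RPKM in the inputs and just missed the threshold (log2 change 1.29, SE 0.53, limma adjusted p = 0.055); with the trends removed it passed, with a log2 change of 1.79.

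HOX genes, the clustered homeobox regulators of the body axis, are short but were often higher in the IP. Of 28 tested, 15 were higher and 1 lower (median 0.96). All 28 have 200 to 450 codons, a window drawn around them after their values were seen, and of the 2832 other nuclear coding genes in it 13.5% were higher, with a median of -0.24. HOXB8 had 17.4 and 23.5 RPKM in the IPs, against 0.615 and 1.80 RPKM in the inputs (log2 change 2.07, SE 0.41, limma adjusted p = 7.7e-04). HOXB9, the most abundant, had 111 and 162 RPKM in the IPs, against 8.21 and 17.7 RPKM in the inputs (1.74). With the length and GC trends taken out, 24 of 28 were higher. Without the first input library 2 were higher in the fit without trends, and 9 of the 15 had at least 1 RPKM in both pairs. POU3F3 and TSHZ1, developmental transcription factors outside the list, were among the 25 largest rises, with 24.8 and 26.2 RPKM in the IPs, against 0.566 and 0.737 RPKM in the inputs for POU3F3 and 27.6 and 63.4 RPKM in the IPs, against 0.510 and 1.47 RPKM in the inputs for TSHZ1. Of 172 genes named ZNF, zinc finger proteins that are mostly transcriptional repressors, 74 were higher and 8 lower (median 0.65), 55 of the 74 through the IP pair alone; 14 were higher without the first input library and 29 without the second.

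**Figure D3:**
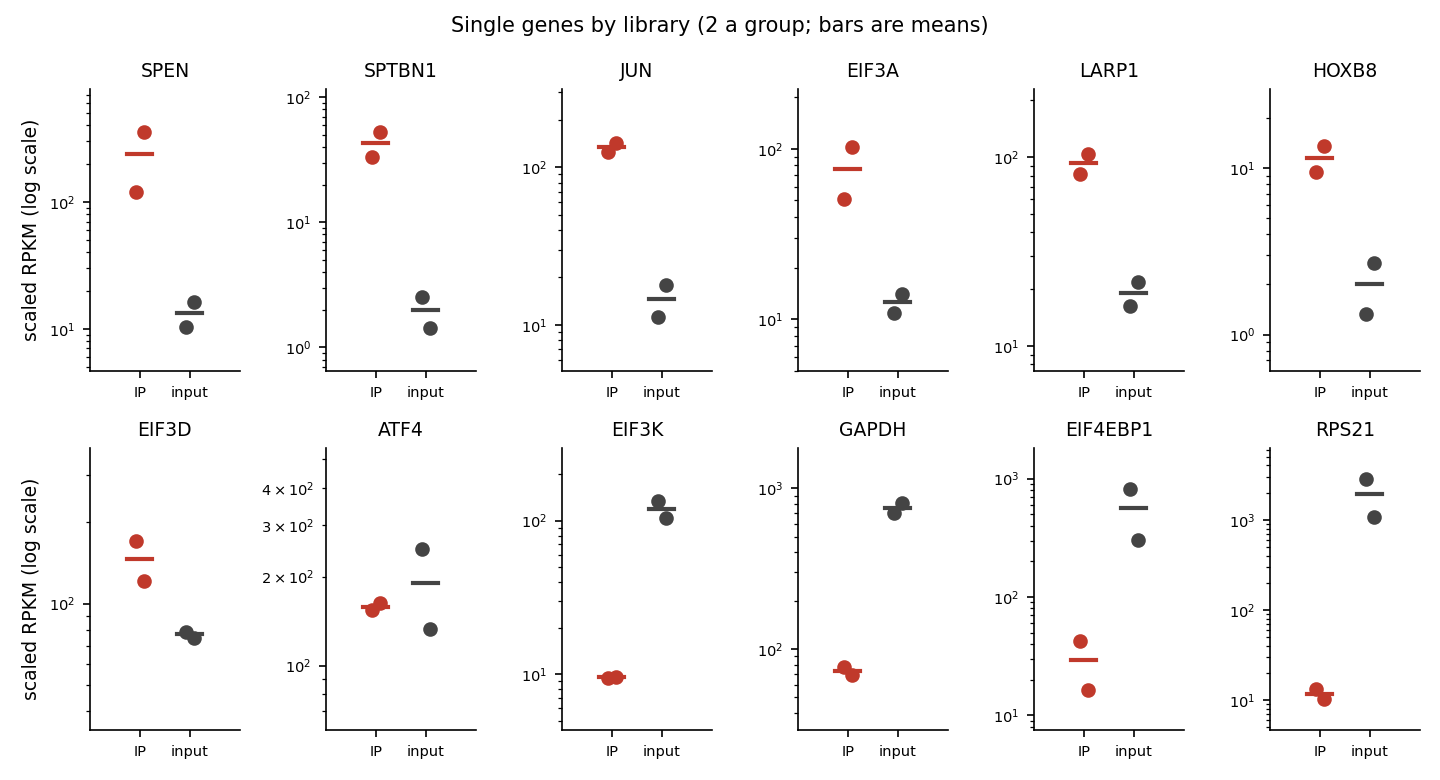
RPKM of 12 genes in each library, scaled to the common median gene and drawn on a log axis, with the eIF3d IP left of the input; each dot is 1 library and each bar the mean of 2. SPEN, SPTBN1, JUN, EIF3A, LARP1 and HOXB8 are higher in both IP libraries than in both inputs, EIF3K, GAPDH, EIF4EBP1 and RPS21 lower, ATF4 overlaps, and EIF3D is separated without passing the test.

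RNA-binding proteins also divided into groups. Of 22 hnRNP genes, nuclear proteins that coat pre-mRNA, 8 were higher and 0 lower (median 1.08), and all 22 had at least 1 RPKM in both pairs. HNRNPD, an AU-rich element binder, had 75.9 and 123 RPKM in the IPs, against 2.76 and 5.25 RPKM in the inputs (log2 change 2.81, SE 0.51, limma adjusted p = 3.9e-04). Without the first input library 1 of these was higher and without the second IP 3. Of 35 stress granule, P-body and deadenylation factors 14 were higher and 0 lower, 7 of the 14 through the IP pair alone, and 6 were higher with the trends removed. Examples were PRRC2B, a granule-associated translation factor, with 130.3 and 221 RPKM in the IPs, against 2.65 and 7.21 RPKM in the inputs and TNRC6C, a partner of Argonaute, with 19 and 27.2 RPKM in the IPs, against 0.607 and 1.14 RPKM in the inputs; 2 were higher without the first input and 7 without the second input or the second IP. Sm and Lsm proteins, the small rings of spliceosomal particles, gave 0 higher and 14 lower of 19 (median -1.64), SNRPD2 with 36.7 and 28.2 RPKM in the IPs, against 380.3 and 270.3 RPKM in the inputs. Of SF3 and U5 factors 6 of 18 were lower and 1 higher, SF3B5, a short SF3B subunit, being the most negative (-4.57). Without the first input library or the first IP 9 Sm and Lsm mRNAs were lower, and with 1 library left out 3 or 4 SF3 and U5 mRNAs.

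Growth, stress and metabolic genes showed mixed changes, beside shares over all genes tested of 23.4% higher and 24.0% lower. Of 23 genes of the integrated stress response 4 were higher and 1 lower; 2 were higher without either of the inputs, and 6 lower without the first IP. PPP1R15A, the phosphatase subunit that ends the response, had 42.1 and 20.7 RPKM in the IPs, against 1.59 and 1.43 RPKM in the inputs (log2 change 2.23, SE 0.44, limma adjusted p = 8.0e-04). SLC38A2, an amino acid transporter, had 15.7 and 10.4 RPKM in the IPs, against 0.970 and 0.528 RPKM in the inputs. ATF4, the transcription factor at the centre of the response, had 285 and 282 RPKM in the IPs, against 114 and 89.2 RPKM in the inputs and did not differ beyond the spread (log2 change -0.20, SE 0.71, limma adjusted p = 0.83). EIF2AK4, the amino-acid-sensing eIF2 kinase, had 5.30 and 5.01 RPKM in the IPs, against 0.794 and 1.49 RPKM in the inputs. BTG1, an antiproliferative factor, had 3.01 and 1.39 RPKM in the IPs, against 0.442 and 0.645 RPKM in the inputs; neither passed, with limma adjusted p = 0.35 for EIF2AK4 and 0.68 for BTG1. Of 19 glycolysis genes 7 were lower and 2 higher, GAPDH with 143 and 119.5 RPKM in the IPs, against 325 and 541 RPKM in the inputs (log2 change -3.35, SE 0.73, limma adjusted p = 0.0017); 4 were lower without the first IP or the second input, and 0 higher without the first input. Of 35 cyclins, CDKs and mitotic regulators 7 were higher, 4 of them through the IP pair alone, and 8 lower, with 2 to 7 higher and 4 to 6 lower when 1 library was left out. MKI67, a long proliferation marker, had 117 and 209.8 RPKM in the IPs, against 6.65 and 12.7 RPKM in the inputs. CKS2, a short CDK-binding protein, had 25.1 and 21.0 RPKM in the IPs, against 90.5 and 71.6 RPKM in the inputs. CDK12, the kinase of RNA polymerase II elongation, had 20.7 and 37.3 RPKM in the IPs, against 1.18 and 2.77 RPKM in the inputs (log2 change 1.96, SE 0.45, limma adjusted p = 0.0023), with an adjusted p of 0.055 in limma without the first input.

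Across nuclear mRNAs, the change varied with length and with the input level. Ordered by codons, the shortest decile of the 8262 genes had 5.44% higher and 62.9% lower in the IP, with a median log2 change of -1.65, and the longest decile had 64.1% higher and 0.121% lower, with a median of 1.01. The one lower gene in the longest decile was NACA, whose long annotated form is one of several, with 12.9 and 14.0 RPKM in the IPs, against 50.2 and 30.6 RPKM in the inputs; it was picked out after its values were seen. Higher genes had a median of 760.5 codons and lower genes one of 242 codons. Spearman's rho with the log2 change across these genes was 0.67 for transcript length, 0.56 for codons, 0.44 for the 3′ UTR, 0.26 for the 5′ UTR and -0.15 for GC content. It was -0.59 for the mean input RPKM, a value that is itself part of the change. The lowest decile of input level had 72.6% higher and 0 lower, and the highest 1.21% higher and 72.7% lower. All genes of the lowest decile had an input mean of at most 0.361 RPKM. They therefore passed the filter only through the IP pair, where a fall was hardly possible, so the filter shaped this end of the relation. Genes are not independent replicates and all share the 4 libraries, and no RNA integrity value was used here, so library preparation and binding cannot be told apart as sources of these relations. PTMA, the short mRNA of prothymosin alpha, went against it, with 563 and 1559.7 RPKM in the IPs, against 42.8 and 74.0 RPKM in the inputs and a log2 change of 2.36, a call lost without the second IP or either input. H1F0, a polyadenylated linker histone of 194 codons, did so too (log2 change 2.32, SE 0.56, limma adjusted p = 0.0034), with 190.1 and 166 RPKM in the IPs, against 8.75 and 12.8 RPKM in the inputs.

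**Figure D4:**
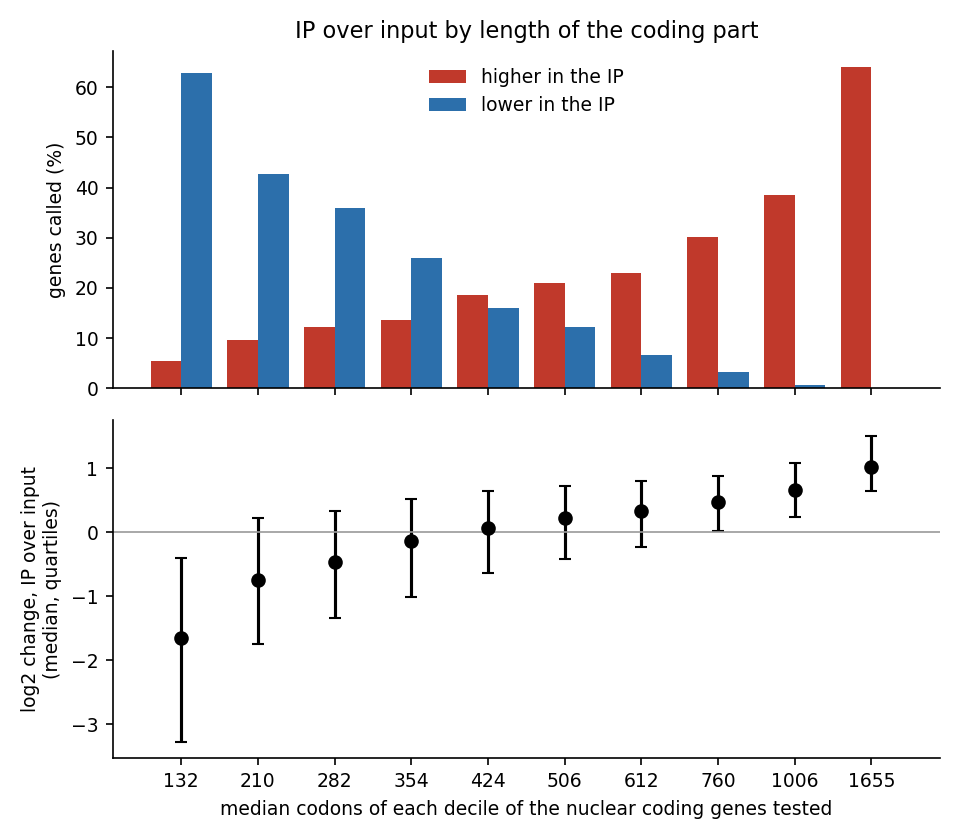
Nuclear coding genes in deciles by number of codons (horizontal axis, median of each decile). The upper panel gives the percentage called higher (left bars) or lower (right bars) in the IP and the lower panel the median log2 change, IP over input, with its quartiles; it goes from -1.65 in the shortest decile to 1.01 in the longest.

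Histone mRNAs that end in a stem-loop and carry no poly(A) tail had few calls: of 25 replication-dependent histones tested 0 were higher and 3 lower (median -0.25), 1 or 2 with 1 library left out. With the length and GC trends taken out the direction turned, with 7 higher, 1 lower and a median of 0.91. HIST1H4C, the most abundant, was the exception among abundant ones, with 118 and 156 RPKM in the IPs, against 1428 and 2176 RPKM in the inputs (-5.37). HIST1H1E, a linker histone and one of the most abundant mRNAs of the IP, had 1419 and 1086 RPKM in the IPs, against 251 and 339 RPKM in the inputs and did not pass the test (log2 change 0.40, SE 0.84, limma adjusted p = 0.72). Near-identical histone copies may share reads, so their values are uncertain. The libraries were made from polyadenylated RNA, so these values do not measure the whole pool of histone mRNAs without a tail, with eIF3d or in the input.

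Noncoding RNAs gave calls in both directions. The libraries were made from polyadenylated RNA, so those without a poly(A) tail may be covered only in part. BCYRN1, the short RNA polymerase III transcript BC200, had 25.6 and 75.9 RPKM in the IPs, against 10473 and 17188 RPKM in the inputs, the largest fall of any gene tested (log2 change -9.87, SE 0.92, limma adjusted p = 1.8e-06). It shares sequence with Alu repeats, so its counts are uncertain. Of 33 small nucleolar and Cajal body RNAs 22 were lower and 2 higher, SCARNA22 with 1.95 and 2.26 RPKM in the IPs, against 339 and 344 RPKM in the inputs; with the trends removed 10 were lower and 9 higher. The spliced hosts of snoRNAs, which are short and themselves often start with pyrimidines (9 of 16 with a promoter in the table), were lower for 14 of 20 and higher for 0, SNHG25 with 1.32 and 0.509 RPKM in the IPs, against 183 and 82.3 RPKM in the inputs; 9 were lower without the first input library. In a list of 22 long noncoding RNAs without such cargo, 7 could be tested, and 5 of these were higher and 1 lower. Over all 439 tested genes annotated as long noncoding, 158 were higher and 106 lower, with a median log2 change of 0.27. NORAD, a cytoplasmic RNA that binds Pumilio proteins, had 35.5 and 35.9 RPKM in the IPs, against 1.41 and 1.86 RPKM in the inputs (log2 change 2.42, SE 0.42, limma adjusted p = 2.6e-04), NEAT1, the scaffold of paraspeckles, had 7.38 and 8.44 RPKM in the IPs, against 0.345 and 0.180 RPKM in the inputs. DANCR, in that list although it hosts a snoRNA, had 12.7 and 16.9 RPKM in the IPs, against 23.1 and 23.4 RPKM in the inputs. Of the 5 rises, 3 had passed the filter only through the IP pair, and 2 kept the call with the trends removed, NEAT1 not among them. Without the second input library 2 were higher.

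**Figure D5:**
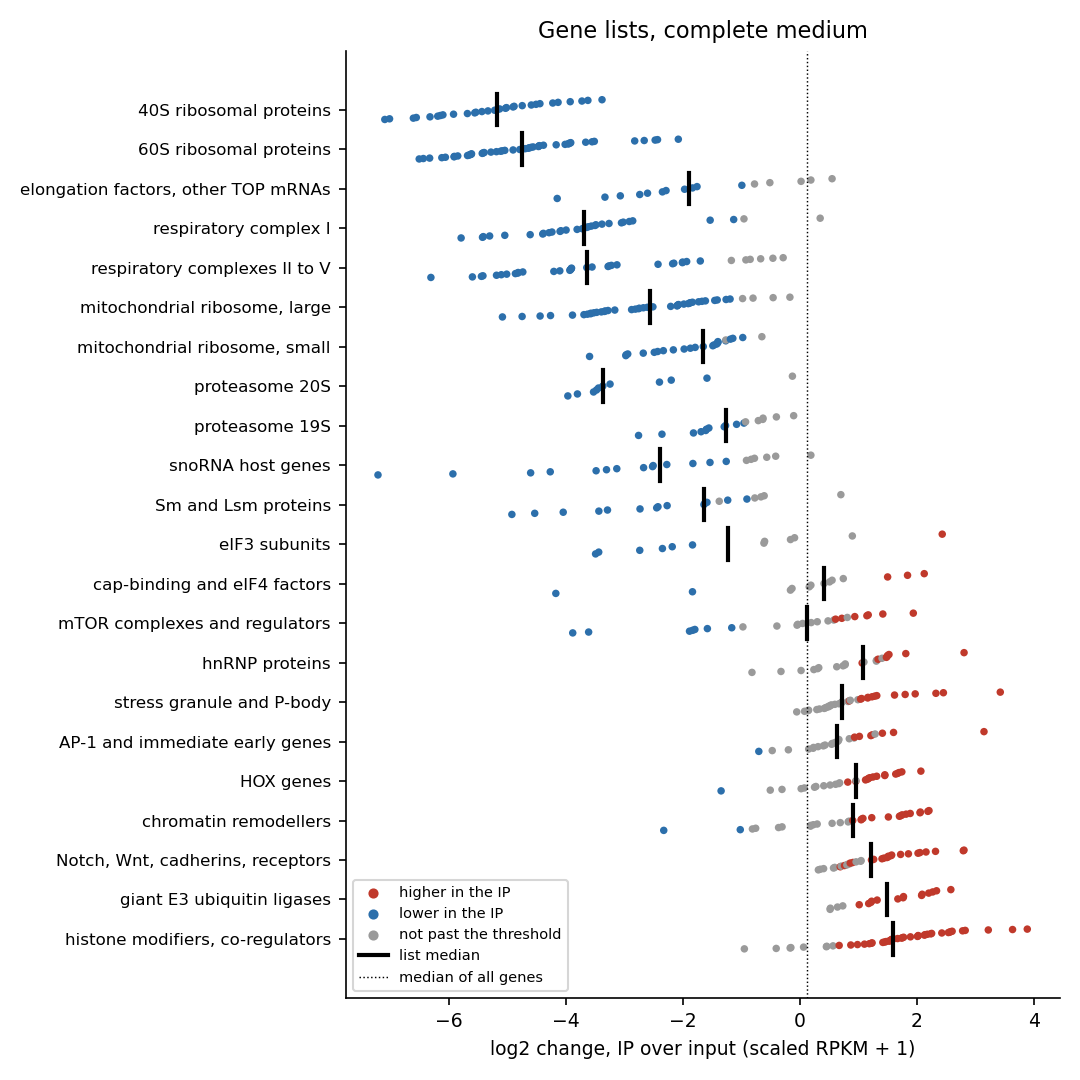
Log2 change, IP over input (horizontal axis), of every tested member of 22 gene lists, 1 dot per gene, with list medians as bars and the median of all genes, 0.12, as a dotted line. The ribosomal, respiratory and proteasome core lists lie to the left and the histone modifier, giant E3 ligase, receptor and HOX lists to the right.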

How the data were processed

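RNA recovered with tagged eIF3d (2 IP libraries) and lysate RNA (2 input libraries) of HEK293T cells in complete medium were compared. Per the labels' protocols the libraries were made from polyadenylated RNA. The authors deposited RPKM values per gene, a reads measure normalised by gene length and library total. HISAT2, SAMtools, cutadapt and the build GRCh38 are named in the submitters' processing notes. Neither the read counter nor the annotation is stated in those notes or the labels. Between 97.5% and 98.0% of low values were whole reads within 0.02 when multiplied by exon lengths of GENCODE 29, which gave depths of 24596456 and 21216047 reads for the IPs and 31708998 and 19490714 for the inputs. A floor of 3 reads corresponds to 0.0946 to 0.154 RPM, for counting error only.

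Here, the filter kept genes whose 4 libraries averaged 1 RPKM or more, each library was scaled to a common median, and limma 3.58.1 in R 4.3.3 (lmFit, eBayes with intensity trend) was run on log2(scaled RPKM + 1) with Benjamini-Hochberg adjustment at 0.05. Standard errors are limma's moderated ones. Gene classes, lengths and codons (longest coding transcript of the basic set) came from GENCODE 29, and start sequences from RefSeq GRCh38.p14. The fit was also run on simulated reads in which far fewer genes changed than were called here. That run therefore cannot test the median scaling for these data. Alternatives changed the scaling, pseudocount, filter, prior variance, length and GC trends, replicate block and the libraries used. Same-numbered IP and input libraries deviated together with r = 0.058 over 2 pairs, so the numbers were not taken to pair them. The members and gene lists were chosen with earlier results of these data known. Genes were named from the 25 largest changes in each direction, and from the extremes, the most abundant and the longest and shortest of each list. A fixed set that includes JUN, LARP1, RPTOR and EIF3D, and the 10 most abundant coding genes of IP and input, also belonged to the rule. The text names only part of these. Several of the largest changes left out are noncoding RNAs, pseudogenes or mitochondrial tRNAs. EIF4EBP2 and NACA were named outside the rule.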

Additional observations from a re-analysis of the deposited data

How the results depend on the processing

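The count of genes higher in the IP was 2308 and of genes lower 2364. Higher genes numbered 1471 with each library centred after the log (38.9% of calls, against 49.4%), 6204 with the RPKM as deposited (85.6%) and 3192 with scaling on the 75th percentile (61.9%), and lower genes numbered 1047 as deposited. Filters gave 169 higher and 700 lower of 37107 with no filter, 969 and 1358 of 3922 at a mean of at least 5 RPKM, and 738 higher with at least 1 RPKM in each pair. Leaving out 1 library at a time gave 644 to 2480 higher and 1507 to 2072 lower genes, the lowest counts without the first input. limma voom on reads recovered from the RPKM, chosen after seeing the data, called 2300 higher and 2483 lower. The replicate block gave 2621 higher and 2578 lower and changed the call of 2 named genes, both then past the threshold. Taking out length and GC trends gave 2401 higher and 2081 lower, of which 1402 and 1675 were also called in the same direction without it and 8 and 8 in the opposite one. Of 102 named genes 48 kept direction and call under every alternative in which they were tested. The direction turned for 5 genes that were not called, and ATF4 and EEF2 were then past the threshold under quantile normalization alone: ATF4 (0.26 centred, 1.48 as deposited, 0.16 on the 75th percentile, 2.73 under quantile normalization, 0.54 without length and GC trends, 0.54 with the block too, and with 1 library left out at a time -0.65 to 0.25), BTG1 (-0.21 centred, -0.031 under quantile normalization, and -0.11 to 0.39 with 1 library left out), EEF2 (0.90 as deposited, 2.50 under quantile normalization), EIF2AK4 (-0.46 without length and GC trends, -0.46 with the block too) and EIF4EBP2 (-0.059 without these trends, -0.059 with the block too, and -0.16 to 0.96 with 1 library left out). The causes were not tested. With 2 libraries a group, the fit has few degrees of freedom, and changes of genes near 1 RPKM are limited by depth.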
